A study of Homo sapiens with 6 samples.

Results

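The 10 interferon-induced genes IFI44L, IFI44, SAMD9, SAMD9L, IFIT1, IFIT2, IFIT3, IFIT5, IFI6 and ISG15 were followed library by library in HEK293 cells. They were taken by symbol from a table of 57773 genes, in which all 10 members were found, and 8 of them were among the 17805 genes that passed the filter on low counts. They were selected on the difference in level between the labelled groups in these same libraries, so their own fold changes are given as a description and carry no p-value.

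Gene expression was measured by RNA sequencing of total RNA in 3 libraries labelled TRDMT1 gene knockdown and 3 libraries labelled control. TRDMT1 (DNMT2) methylates cytosine in the anticodon loop of some tRNAs, and the design asked what its depletion changes in these cells. Both groups were the HEK293 line, human embryonic kidney cells transformed with adenovirus DNA, and both were carried through ribosomal RNA depletion and a bisulfite kit for RNA methylation before library construction, per the labels' protocols. How the knockdown was made, whether the control cells carried a control construct, and whether each library stands for its own culture are not given in the sources used here. The spread behind each p-value is that among the sequenced libraries and may be technical.

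Interferons bind cell surface receptors, whose kinases JAK1 and TYK2 activate transcription factors in the cytoplasm. These enter the nucleus and bind the interferon-stimulated response element in the promoters of their targets. HEK293 cells express the adenoviral E1A protein, which is known to dampen this branch of transcription. The 10 members are targets of the pathway: RNA-binding proteins of the IFIT family, the growth-suppressing and antiviral proteins SAMD9 and SAMD9L, the related proteins IFI44 and IFI44L, the membrane protein IFI6 and the ubiquitin-like modifier ISG15.

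The response element core was looked for first, because it is the sequence that the members are known to share. This core, GAAA and again GAAA after any 2 bases, was searched on both strands in the 250 bases before each annotated start (RefSeq, GRCh38.p14), where 9 of the 10 members had a promoter. It was present in 8 of these 9, against 3.71% of all 27305 genes with a promoter, and overlapping matches were counted separately. SAMD9L was the member with no match to these letters in this window. The longer core, which ends in a further CT, was present in 6 of the 9, against 0.271% of all genes, and IFI44L and SAMD9 were without it. The letters TTCNNNGAA, the core of the gamma-activated sequence, were in none of the 9 windows, against 8.09% of all genes.

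The windows below show the core of 1 match in each of 6 members, with the core in capitals and read 5′ to 3′ along the gene's strand; a core on the opposite strand appears as its complement. They are shown because they cover the member with the largest difference (IFI44L), its neighbour, SAMD9, 2 IFIT genes and ISG15.
IFI44L: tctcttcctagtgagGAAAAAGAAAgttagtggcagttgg
IFI44: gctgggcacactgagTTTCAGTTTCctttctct
SAMD9: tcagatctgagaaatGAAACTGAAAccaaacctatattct
IFIT1: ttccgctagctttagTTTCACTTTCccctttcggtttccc
IFIT5: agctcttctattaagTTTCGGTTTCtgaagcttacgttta
ISG15: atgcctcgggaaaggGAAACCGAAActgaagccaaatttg
The IFI44L window lies at chr1:78620360-78620399 on the plus strand, and the same letters stand a second time upstream, at chr1:78620269-78620308. IFI44 is at chr1:78649756-78649788, plus strand, and its core begins 18 bases before the first of 2 annotated starts that had a match. SAMD9 is at chr7:93118091-93118130 on the minus strand, IFIT1 at chr10:89392492-89392531 and IFIT5 at chr10:89414508-89414547, both plus strand. ISG15 is at chr1:1013375-1013414, plus strand, where it overlaps a further match. IFI6 had 3 matches, and IFIT3 had 2 before each of the 2 starts that had a match. Any starts of these members without a match were not counted.

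**Figure D1:**
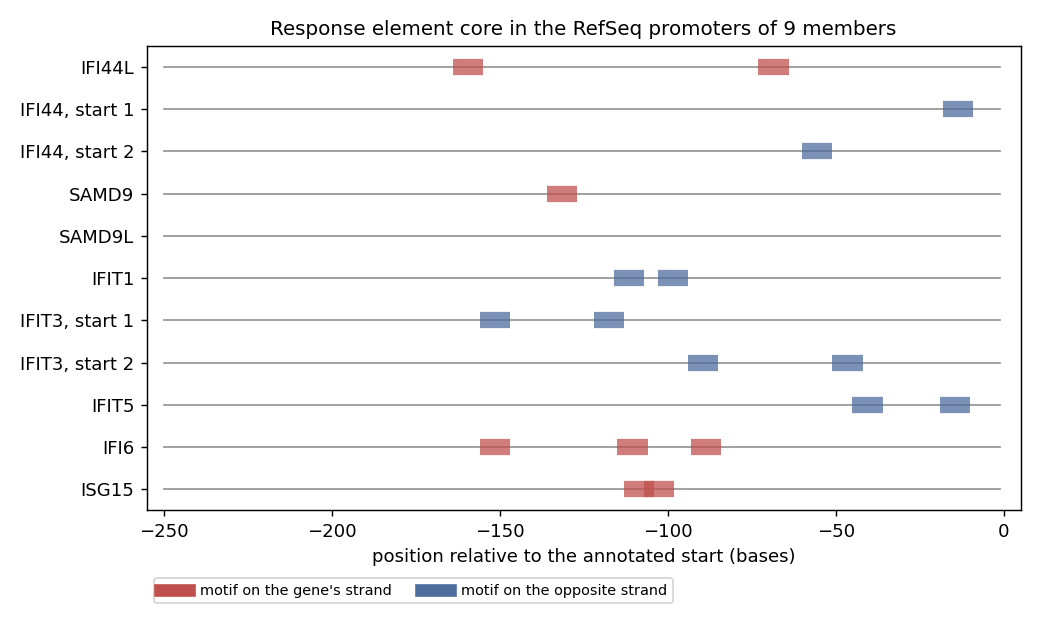
Positions of the response element core in the 250 bases before annotated starts of the 9 members with a promoter. The horizontal axis is the distance from the start in bases, and blocks are matches on the gene's strand (red) or the opposite strand (blue). Matches appear in 8 of the 9 genes, and SAMD9L has none. For those 8 genes only starts with a match are drawn, each with 1 to 3 matches.

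Library totals were 36455950 to 40088993 counts for the label knockdown and 24776040 to 26802182 for the label control. TRDMT1 did not bear out the labels: its level was 0.58, 0.58 and 0.58 RPKM (counts scaled by exonic length and library total) in the libraries labelled knockdown, against 0.36, 0.36 and 0.28 RPKM in those labelled control, with an edgeR log2 fold change of 0.61 ± 0.21 (SE) and an adjusted p of 0.0705. By exact permutation of the labels (two-sided, log2 of RPKM + 1) p was 0.1, which 3 libraries a group cannot go below. The table's column names, which the sample descriptions pair with the titles, also read the other way round, with C for the libraries labelled knockdown and TK for those labelled control. Whether the labels were exchanged was not tested, and an exchange would turn every direction given here. Control replicate 2 stood apart from the other controls, and the median over tested genes of SD as a percent of the mean was 6.0% for the libraries labelled knockdown, against 26.2% for the controls. The HEK293 list (PAX2, LHX1, EYA1, NEFL, NEFM and VIM) was detected in full and summed to 301 to 311 RPKM in the libraries labelled knockdown, against 358 to 508 RPKM in the controls, with none of its 6 genes called. Most of that sum was VIM, at 227.12, 231.35 and 232.17 RPKM in the libraries labelled knockdown, against 290.90, 456.37 and 263.16 RPKM in the controls. PAX2 and LHX1 went the other way, higher in every library labelled knockdown than in any control, and EYA1, NEFL and NEFM overlapped. Leukocyte markers (6 genes) summed to 0.74 to 0.90 RPKM in the libraries labelled knockdown, against 0.73 to 1.05 RPKM in the controls, mostly CD14, and PTPRC was at 0.00 to 0.01 RPKM in every library. Of the other marker lists, 5 fibroblast genes summed to 4.38 to 4.71 RPKM in the libraries labelled knockdown, against 1.56 to 6.08 RPKM in the controls, with LUM called lower. The 3 endothelial genes summed to 0.61 to 0.73 RPKM in the libraries labelled knockdown, against 0.15 to 0.42 RPKM in the controls, with CDH5 at 0.00 RPKM in each library, from 2 counts in all. The part of these levels in the members' differences was not tested.

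Seen together, the members split by level and by difference. IFI44L and SAMD9 were far lower in the libraries labelled knockdown, IFIT5, IFIT3 and IFIT1 were lower by a smaller factor, and IFIT2, IFI6 and ISG15 were not called at an adjusted p of 0.05 in the whole-table edgeR test. Of the 8 members tested, 5 were called lower and 0 higher; over all tested genes 14.7% were called lower and 9.29% higher, 24% in all. In 7 of the 10 members every library labelled knockdown lay below every library labelled control in RPKM, among them 5 of the 8 tested, a pattern that 18.4% of all tested genes showed, with 32.5% showing the opposite. The 2 kinds of share are not on the same scale. RPKM is scaled by plain library totals, whereas edgeR also applied scaling factors (TMM). These were 1.06 to 1.07 for the libraries labelled knockdown, against 0.997, 0.812 and 1.03 for control replicates 1, 2 and 3. Since the members were picked with this contrast known, nothing is read from these shares. In a bulk sample, fewer cells expressing a gene and less RNA per cell cannot be told apart.

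In the libraries labelled knockdown the highest members were IFI6 (9.69 ± 0.58 RPKM) and ISG15 (8.32 ± 0.60 RPKM), whose ranges did not meet, followed by IFIT5 (3.75 ± 0.30), IFIT1 (1.48 ± 0.10), IFIT3 (0.806 ± 0.109), IFIT2 (0.405 ± 0.077) and SAMD9 (0.207 ± 0.053; all SD, n = 3). Each of these stood apart from the next in every library. IFI44, SAMD9L and IFI44L lay at 0.0258 ± 0.0286, 0.00512 ± 0.00588 and 0.00421 ± 0.00378 RPKM, within reach of each other. In the libraries labelled control ISG15 (13.5 ± 10.3), IFI6 (9.25 ± 1.03) and IFIT5 (9.07 ± 2.19) overlapped, and so did IFIT1 (2.20 ± 0.55), SAMD9 (1.80 ± 0.92) and IFIT3 (1.45 ± 0.28). IFIT2 (0.569 ± 0.256), IFI44 (0.248 ± 0.212) and IFI44L (0.182 ± 0.075) overlapped in turn, and SAMD9L was lowest (0.0408 ± 0.0233). SAMD9 stood below IFIT2 in all 3 libraries labelled knockdown, whereas it stood above IFIT2 in all 3 labelled control.

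**Figure D2:**
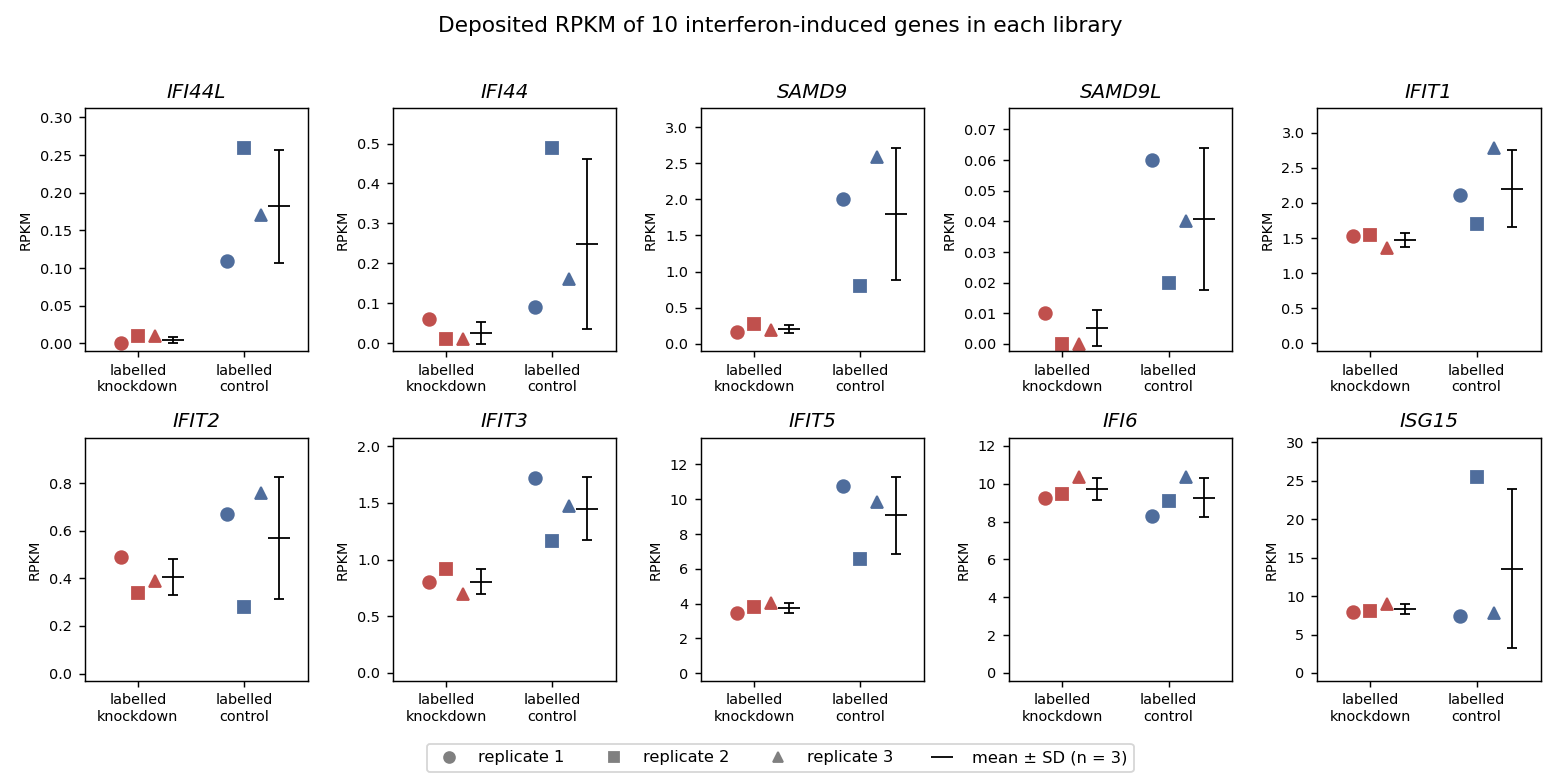
Deposited RPKM of the 10 members in each library (circles, squares and triangles are replicates 1, 2 and 3), with libraries labelled knockdown on the left and labelled control on the right of each panel, and the mean ± SD of 3 libraries as a black bar. The vertical axes differ between panels. SAMD9 and IFIT5 show no overlap between groups, while ISG15 is raised in control replicate 2 alone.

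IFI44L and IFI44 are neighbours on chromosome 1 and encode related cytoplasmic proteins. IFI44L (ENSG00000137959, exonic length 10240 bases) had counts of 0, 2 and 3 in the libraries labelled knockdown, against 30, 66 and 48 in those labelled control. All 3 libraries labelled knockdown were at or under the floor of 3 counts, far below the lowest control. The fitted log2 fold change was −5.49 ± 0.71 (SE), and only 4 of the 17805 tested genes had a lower one. Pooled over each group the counts were 5 against 144, a ratio 41.8-fold lower (95% exact interval 17.5-fold to 131-fold, counting error only). In absolute terms the gene was scarce in the controls too, at 0.11, 0.26 and 0.17 RPKM.

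IFI44 (ENSG00000137965) did not pass the filter, with counts of 6, 1 and 1 in the libraries labelled knockdown, against 7, 34 and 12 in those labelled control. In RPKM this was 0.06, 0.01 and 0.01 in the libraries labelled knockdown, against 0.09, 0.49 and 0.16 in those labelled control. The groups did not overlap, but the highest library labelled knockdown and the lowest control differed by 1 count before scaling. Its pooled ratio was 9.62-fold lower (95% exact interval 4.54-fold to 23.4-fold, counting error only). Control replicate 2 held 34 of the 53 control counts, and the log2 ratio of mean RPKM was −4.25 against it and −2.30 against the other controls. Both genes of the pair were highest in control replicate 2.

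SAMD9 and SAMD9L are neighbours on chromosome 7 and restrict poxviruses and slow cell growth; SAMD9 has been described as a nuclease that cuts a tRNA in its anticodon. SAMD9 (ENSG00000205413) stood at 0.16, 0.27 and 0.19 RPKM in the libraries labelled knockdown, against 2.01, 0.80 and 2.59 RPKM in those labelled control, from 41 to 67 counts and 135 to 476 counts. The highest library labelled knockdown was below the lowest control by a wide margin, and the lowest control was replicate 2. Its log2 fold change was −3.25 ± 0.39 (SE), 9.48-fold lower, and 62 tested genes had a lower one. SAMD9L (ENSG00000177409) had counts of 3, 1 and 0 in the libraries labelled knockdown, against 12, 3 and 8 in the controls, too few to be tested, with a pooled ratio 8.35-fold lower (95% exact interval 2.85-fold to 33.2-fold, counting error only). The groups of SAMD9L did not overlap in RPKM, but its highest library labelled knockdown and its lowest control both held 3 counts before scaling. The count of 0 allows a level of up to 0.0105 RPKM. SAMD9L too was lowest among the controls in replicate 2.

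The IFIT genes lie in a cluster on chromosome 10 and encode proteins that bind foreign RNA. IFIT5, which binds RNA with a free triphosphate end, was at 3.44, 3.80 and 4.03 RPKM in the libraries labelled knockdown against 10.77, 6.59 and 9.86 RPKM in those labelled control. Its groups were well apart, and its log2 fold change was −1.43 ± 0.15 (SE), 2.70-fold lower. IFIT3, which stabilises IFIT1, was at 0.80, 0.92 and 0.70 RPKM in the libraries labelled knockdown against 1.72, 1.16 and 1.47 RPKM in those labelled control (−1.01 ± 0.20, 2.02-fold lower). Here the gap between the groups was narrower, 0.92 RPKM in the highest library labelled knockdown against 1.16 RPKM in the lowest control.

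IFIT1, which binds capped RNA that lacks ribose methylation, was at 1.53, 1.54 and 1.36 RPKM in the libraries labelled knockdown against 2.12, 1.70 and 2.79 RPKM in those labelled control (−0.74 ± 0.18). The groups came close to touching, at 1.54 RPKM in the libraries labelled knockdown and 1.70 RPKM in control replicate 2. IFIT2, an RNA-binding partner of the other IFIT proteins, was at 0.49, 0.34 and 0.39 RPKM in the libraries labelled knockdown against 0.67, 0.28 and 0.76 RPKM in those labelled control (−0.63 ± 0.33, not called). Control replicate 2 lay below all 3 libraries labelled knockdown, and without it the value was −0.89 ± 0.21 and the gene was called. Within the family the 4 genes thus kept one order of level, IFIT5 over IFIT1 over IFIT3 over IFIT2, in all 6 libraries.

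IFI6, a small membrane protein that hinders flavivirus replication, had 9.26, 9.47 and 10.35 RPKM in the libraries labelled knockdown against 8.30, 9.10 and 10.35 RPKM in those labelled control. The groups overlapped throughout, and the log2 fold change was −0.11 ± 0.17 (SE), or 0.068 ± 0.16 when scaled by plain library totals. ISG15, a ubiquitin-like protein that is conjugated to other proteins, had 7.95, 8.0 and 9.02 RPKM in the libraries labelled knockdown against 7.39, 25.49 and 7.77 RPKM in those labelled control. Control replicate 2 was 3.36 times the mean of the other controls, and these lay below all 3 libraries labelled knockdown. The fitted log2 fold change of ISG15, −0.97 ± 0.56, rested on that library: without it the value was 0.068 ± 0.13.

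Control replicate 2 thus moved the members in different directions. Relative to the mean of control replicates 1 and 3 it was higher for IFI44 (3.85 times), ISG15 (3.36 times) and IFI44L (1.82 times), near equal for IFI6 (0.976 times), and lower for IFIT3 (0.729 times), IFIT1 (0.694 times), IFIT5 (0.639 times), IFIT2 (0.388 times), SAMD9 (0.345 times) and SAMD9L (0.322 times). The median of this ratio over all tested genes was −0.34 on the log2 scale, so a typical gene was also lower in that library. All these ratios are of RPKM, scaled by plain library totals. The members of a neighbouring pair moved the same way in it: IFI44 with IFI44L, SAMD9 with SAMD9L, and the 4 IFIT genes together. For the SAMD9 pair and the IFIT genes this was also the direction of a typical gene, and SAMD9L had 3 counts in control replicate 2. Set against control replicate 2 alone, the log2 ratio of the mean of the libraries labelled knockdown was −5.95 for IFI44L, −1.94 for SAMD9 and −0.81 for IFIT5, against −5.08, −3.48 and −1.46 when set against the other controls. What control replicate 2 owes its values to was not tested.

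**Figure D3:**
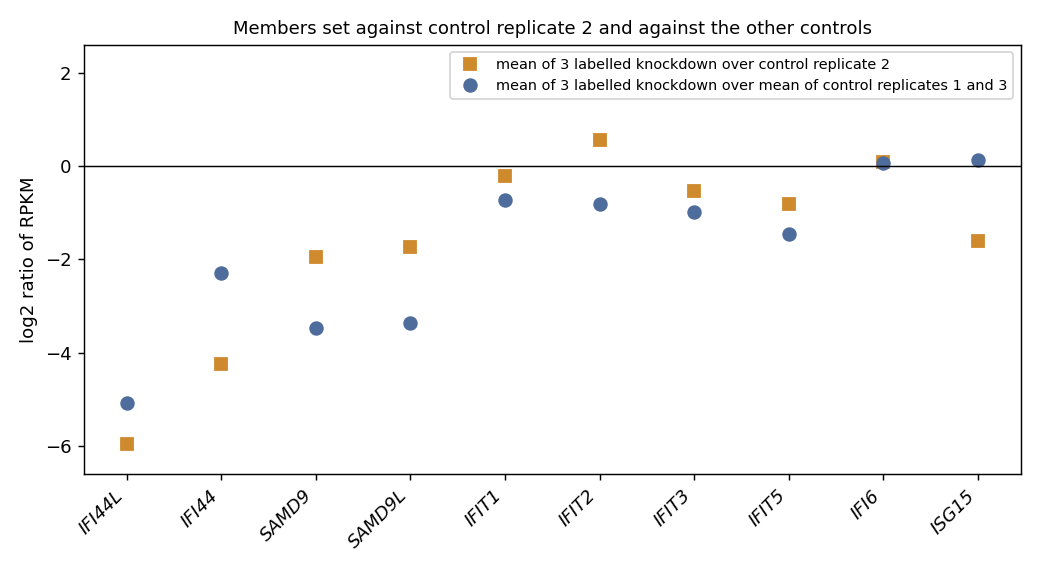
Log2 ratio of RPKM (vertical axis) for each member, with the mean of the 3 libraries labelled knockdown set over control replicate 2 (orange squares) and over the mean of control replicates 1 and 3 (blue circles). IFI44L, IFI44, SAMD9, SAMD9L, IFIT1, IFIT3 and IFIT5 lie below 0 against both, whereas IFIT2 and ISG15 change side.

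Base composition and length ran in part alongside these differences. Members called lower with and without the correction described next had GC-poor transcripts, with 36.0% GC in SAMD9, 37.4% in IFIT5 and 37.8% in IFI44L, against a median of 48.8% over tested genes, and exonic lengths of 6852, 4015 and 10240 bases in the same order; only 529 tested genes were poorer in GC than SAMD9. IFI6 and ISG15, which were not called, had 56.1% and 63.4% GC and exonic lengths of 865 and 711 bases, against a median of 4083 bases. IFIT5, however, also lay just under that median length. IFIT3 (2640 bases, 44.3% GC) was called as fitted, whereas IFIT2 (3489 bases, 42.8% GC), longer and poorer in GC, was not. With smooth trends of composition and length removed from each library, SAMD9 stood at −2.03 ± 0.31, IFIT5 at −0.74 ± 0.12 and IFI44L at −5.00 ± 0.84 (log2, SE), and these 3 were still called. IFIT3 (−0.46 ± 0.20), IFIT1 (−0.34 ± 0.19) and IFIT2 (−0.14 ± 0.34) were not, and all 4 IFIT differences lay closer to 0. After this correction 11.1% of all tested genes were called lower and 9.21% higher, 20.3% in all.

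**Figure D4:**
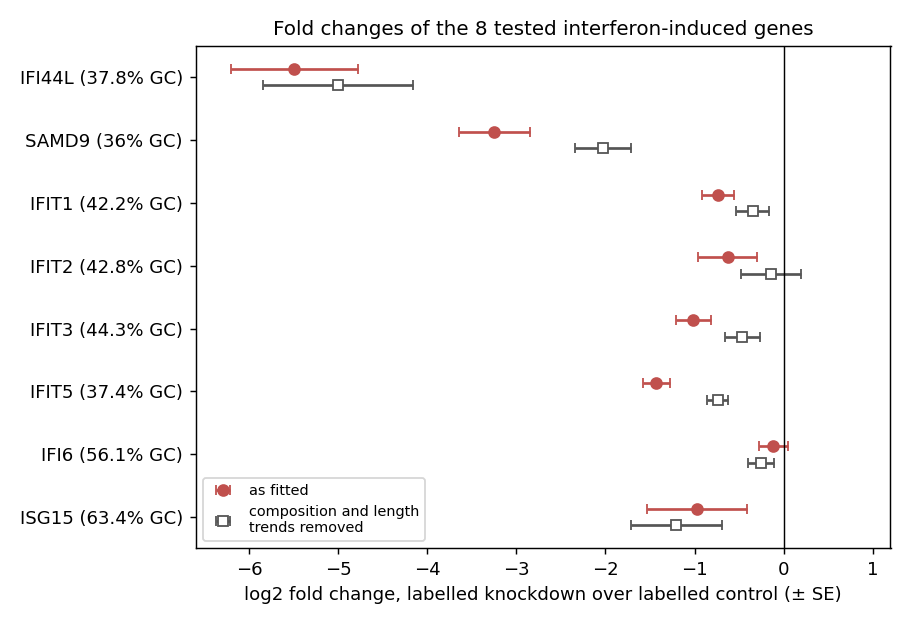
Log2 fold change (labelled knockdown over labelled control, ± SE) of the 8 members that passed the filter, as fitted (red circles) and with composition and length trends removed (open squares), with the GC content of the longest transcript beside each name. IFI44L, SAMD9 and the 4 IFIT genes move toward 0 with the trends removed, SAMD9 by the widest step, and ISG15 and IFI6 move away from 0.

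No stretch of 50 bases was shared between the transcripts of any 2 members (GENCODE release 29), on either strand. The sequences were compared as annotated, and whether stretches are shared after the bisulfite step was not tested. Annotated genes overlap IFIT1, IFIT2, IFIT3, IFI6 and ISG15, mostly on the opposite strand, and no source used here says whether the counting used strand, although the library kit was a stranded one per the labels' protocols. LIPA, a lysosomal lipase that spans 3 of the IFIT genes, was level at 11.37, 11.28 and 11.14 RPKM in the libraries labelled knockdown against 11.26, 8.19 and 11.64 RPKM in those labelled control (−0.04 ± 0.11). The antisense transcript AL645608.1, which overlaps ISG15, had counts of 32, 29 and 34 in the libraries labelled knockdown, against 29, 76 and 27 in those labelled control, so it too was highest in control replicate 2. The pseudogene AL645608.3 also overlaps ISG15. It had counts of 65, 66 and 70 in the libraries labelled knockdown, against 27, 49 and 55 in those labelled control. Among the controls it was highest in replicate 3. Reads of such partners cannot be told apart from the members' own where strand was not used. AL353751.1 overlaps IFIT2 on the same strand, so there strand would not separate the reads either. It had counts of 4, 5 and 8 in the libraries labelled knockdown, against 1, 10 and 2 in those labelled control.

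The nearest tested genes on the chromosome were looked at next, since the members sit in clusters. PTGFR, the prostaglandin F receptor and the first tested gene beside IFI44L on one side, was also lower: its counts were 1, 1 and 4 in the libraries labelled knockdown, against 55, 23 and 57 in those labelled control, with a log2 fold change of −5.06 ± 0.51 and an adjusted p of 0.00133 (edgeR), and −4.52 ± 0.48 with composition and length trends removed. Among the controls, however, PTGFR was lowest in control replicate 2, where IFI44L was highest. LPHN2, the next tested gene on the other side of the IFI44 pair and much farther away than PTGFR, was not called (0.03 ± 0.13, adjusted p = 0.871, edgeR). Beside SAMD9L, CCDC132, a subunit of an endosomal tethering complex, fell to 0.98, 1.15 and 0.97 RPKM in the libraries labelled knockdown, against 4.8, 3.57 and 4.62 RPKM in those labelled control (−2.23 ± 0.14, adjusted p = 0.000283, edgeR). With the trends removed it stood at −1.54 ± 0.13. On the other side of SAMD9, AC002454.1 was not called (−0.81 ± 0.44, adjusted p = 0.218, edgeR). Outside the IFIT cluster, SLC16A12 was at 0.35 ± 0.39 (adjusted p = 0.534, edgeR), and the transcription factor gene HES4 beside ISG15 was at −0.32 ± 0.50 (adjusted p = 0.666, edgeR), with its highest level, 289.68 RPKM, in control replicate 2.

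Genes with library profiles nearest to IFI44L and SAMD9 were found by Euclidean distance between centred log2 CPM over the 6 libraries, among 14893 candidates. For IFI44L they were SYT1, CEP290, EDNRB, KIAA1009 and PPFIA2, at distances of 1.13 to 1.68. For SAMD9 they were ZNF292, CNTN1, NEMF, CCDC88A and RANBP2, at distances of 0.40 to 0.54. None of these 10 genes is in the lists of interferon pathway genes used here. Those lists held 112 tested genes, few beside the 14893 candidates, so nothing is read from this. All 10 were GC-poor and long, with 35.9% to 41.6% GC and exonic lengths of 5035 to 14537 bases. The medians over tested genes were 48.8% and 4083 bases. The part of composition and length in these profiles was not tested. SAMD9's nearest profiles shared its dip in control replicate 2, as in ZNF292 with 0.31, 0.49 and 0.47 RPKM in the libraries labelled knockdown against 3.31, 1.44 and 4.85 RPKM in those labelled control.

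The rest of the pathway was described from 7 lists of 169 genes outside the members, of which 164 were in the table and 112 were tested. Of these 112 genes, 15 were called lower and 15 higher, that is 13.4% in each direction, against 14.7% lower and 9.29% higher over all tested genes. The even split depended on the scaling: 16 were higher and 8 lower under plain library totals, 18 and 7 on log2(RPKM + 1), 16 and 7 on log2(RPKM + 0.1), and 11 and 7 once the trends of composition and length were taken out. The median log2 fold change was 0.12, against −0.04 over all tested genes. The lists as a whole had counts in both directions where the called members were all lower; that difference itself was not tested.

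Among the ligands, none of the 21 interferon genes in the table passed the filter, and 13 had no count in any library; summed, they stood at 0.00 to 0.22 RPKM in the libraries labelled knockdown, against 0.12 to 0.28 RPKM in the controls. Of 9 receptor and kinase genes, 1 was called, the interferon gamma receptor chain IFNGR1, which fell to 11.64, 11.63 and 10.55 RPKM in the libraries labelled knockdown, against 18.50, 23.21 and 16.07 RPKM in those labelled control (−0.98 ± 0.23, adjusted p = 0.0236, edgeR). With the trends removed it was not called (−0.51, adjusted p = 0.0902), and IL10RB, a receptor chain shared by interferon lambda and interleukin receptors, was then called higher (0.56, adjusted p = 0.0128, edgeR).

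Of 14 STAT, IRF and related factors, 3 were called higher and 0 lower, with a median of 0.41. IRF7, the factor that amplifies interferon production, rose to 7.26, 7.34 and 7.60 RPKM in the libraries labelled knockdown, against 2.11, 3.59 and 2.10 RPKM in those labelled control (1.29 ± 0.31, adjusted p = 0.0248, edgeR). ETV7, a repressor of some interferon targets, rose by 1.03 ± 0.29 (adjusted p = 0.0417) and IRF5 by 0.70 ± 0.20 (adjusted p = 0.043, edgeR), and with the trends removed IRF7 alone of the 3 was still called (0.98, adjusted p = 0.0429), and IRF3, which TBK1 activates, was then called lower (−0.60, adjusted p = 0.022, edgeR). STAT2, at −0.13 (adjusted p = 0.604), and IRF9, at −0.28 (adjusted p = 0.332, edgeR), singled out after their values were seen, were not called.

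Sensors and adaptors gave 1 gene higher and 3 lower of 15 tested, with a median of 0.14. TBK1, the kinase that activates IRF3, fell to 2.19, 2.51 and 2.48 RPKM in the libraries labelled knockdown, against 10.10, 7.65 and 9.76 RPKM in those labelled control (−2.11 ± 0.13, adjusted p = 0.000283, edgeR), and was still called with the trends removed (−1.36). The toll-like receptor adaptor MYD88 fell by 0.67 ± 0.15 (adjusted p = 0.0186) and the RNA sensor gene DDX58 (RIG-I) by 0.50 ± 0.14 (adjusted p = 0.0381, edgeR), while the RNA helicase ZNFX1 rose by 0.48 ± 0.14 (adjusted p = 0.04). With the trends removed DDX58 stood at 0.03 and ZNFX1 at 0.25, neither called, while MYD88 was still called (−0.78) and the adaptor TRAF6 was then called higher (0.76).

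Genes that restrain the pathway gave 2 higher and 4 lower of 17 tested, with a median of 0.09. NLRX1, a mitochondrial inhibitor of RNA sensing, rose to 9.31, 9.65 and 10.49 RPKM in the libraries labelled knockdown, against 4.41, 2.79 and 4.96 RPKM in those labelled control (1.12 ± 0.16, adjusted p = 0.00431, edgeR). The corepressor IRF2BP2 rose by 0.40 ± 0.11 (adjusted p = 0.0381). The STAT inhibitor PIAS1 fell by 0.72 ± 0.14, the phosphatase PTPN2 by 1.15 ± 0.23 and the RNase H2 subunit RNASEH2B by 0.74 ± 0.16 (adjusted p of 0.0126, 0.0147 and 0.0168, edgeR). With the trends removed NLRX1 (0.76) and PIAS1 (−0.51) were still called, and IRF2BP2, PTPN2 and RNASEH2B were not.

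Other antiviral effectors, the closest relatives of the members in function, gave 8 higher and 6 lower of 43 tested, with a median of 0.04. CMPK2, a mitochondrial nucleotide kinase induced by interferon, rose to 1.11 ± 0.08 RPKM (SD, n = 3) in the libraries labelled knockdown, against 0.281 ± 0.123 RPKM in those labelled control (log2 fold change 1.82 ± 0.27, adjusted p = 0.00497, edgeR). TRIM5, which restricts retroviruses, rose by 1.09 ± 0.22 (adjusted p = 0.0142) and the helicase HELZ2 by 1.36 ± 0.29 (adjusted p = 0.0175). The ADP-ribosyltransferase PARP14 fell to 2.11, 1.86 and 1.91 RPKM in the libraries labelled knockdown, against 3.56, 3.46 and 4.19 RPKM in those labelled control (−1.11 ± 0.13, adjusted p = 0.00234, edgeR). SP100, of nuclear bodies, fell by 1.11 ± 0.15 and the DNA sensor IFI16 by 0.91 ± 0.16 (adjusted p of 0.00399 and 0.00967, edgeR); neither was called with the trends removed. Of 14 antigen presentation genes 1 rose, the peptidase ERAP1 (0.69 ± 0.11, adjusted p = 0.00683), and 1 fell, B2M, the light chain of class I molecules (−0.92 ± 0.27, adjusted p = 0.0476, edgeR), the second not called with the trends removed (−0.33), where ERAP2 was called higher (0.50) and PSME2 lower (−0.59).

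**Figure D5:**
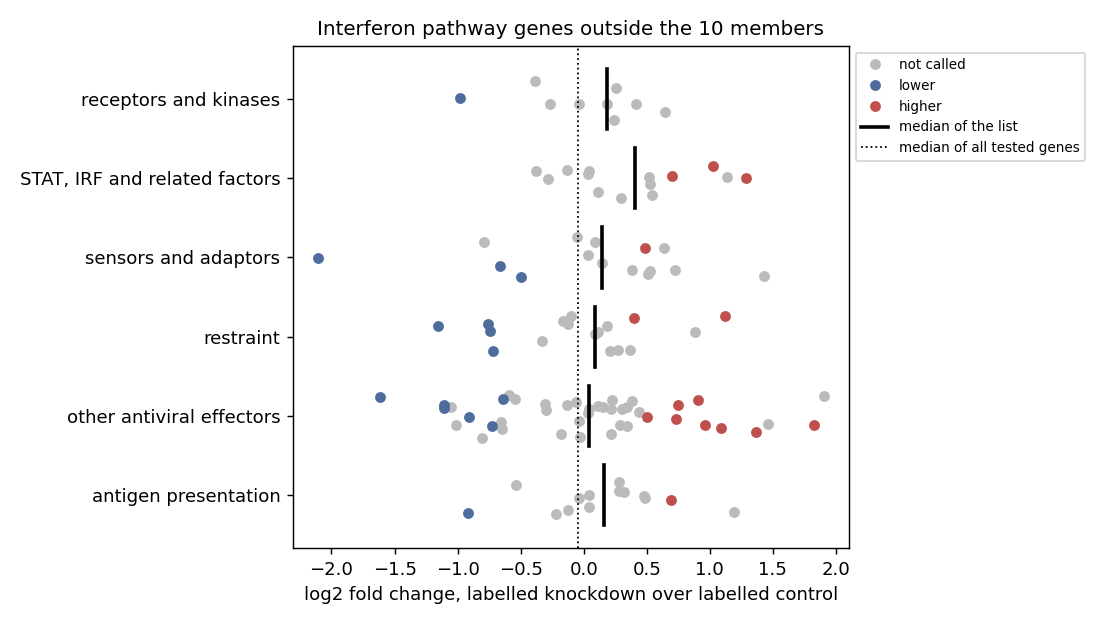
Log2 fold change (horizontal axis, labelled knockdown over labelled control) of each tested gene in 6 interferon pathway lists outside the members; red and blue points were called higher and lower, grey points were not called, black bars are list medians and the dotted line is the median of all tested genes. List medians lie between 0.04 and 0.41, and called genes appear on both sides in all lists but the receptors and the STAT and IRF factors.

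Genes outside the members that carry the response element core were counted last. Outside the members, 377 tested genes had it in the 250 bases before a start; 62 of them (16.4%) were called lower and 29 (7.69%) higher, with a median log2 fold change of −0.07. Over the 12265 tested non-member genes with any promoter in the table, 15.5% were called lower and 9.89% higher, and the median was −0.04. The longer core was in 27 tested genes outside the members, of which 5 (18.5%) were called lower and 0 higher, with a median of −0.30. Among the pathway genes with the core, 29 were tested, of which 5 were lower (B2M, DDX60, MYD88, PARP14 and PLSCR1) and 2 higher (MX1 and TRIM5). These were named after their values were seen. The letters TTCNNNGAA, found in no member's window, gave a wider tilt than the shorter response element core, though not than the longer one with its 27 genes. They were in 923 tested genes, of which 176 (19.1%) were called lower and 62 (6.72%) higher, with a median of −0.12.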

How the data were processed

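The authors deposited raw read counts per gene and RPKM values; the deposited RPKM could be recomputed from counts, exonic lengths and library totals to within 0.005. The submitters' processing notes list build hg19, with edgeR 3.4.6, DESeq 1.18.0, DESeq2 1.6.3, StringTie 1, HTSeq 0.6.1 and bcl2fastq 2.17.1.14, in no stated role; the aligner and annotation are not given in the sources used here. Columns were tied to samples by the second name in each description.

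Counts were tested over all genes with edgeR 4.0.16 in R 4.3.3 (quasi-likelihood F test, TMM, filterByExpr, robust), log2 fold changes being labelled knockdown minus labelled control ± SE. Benjamini-Hochberg adjustment ran over the whole set of tested genes, and genes under 0.05 are called. The fit was tested on simulated data. Members and lists were chosen with earlier results of these data known. Named genes were the members, TRDMT1, up to 3 called genes per list and direction, chromosome neighbours and the 5 nearest profiles (at least 1 CPM, prior count 2). Base composition came from the longest GENCODE 29 transcript (97.2% of tested genes), whose trends and that of length were removed with mgcv 1.9.3. Alternatives included DESeq2 1.42.0, limma 3.58.1 on RPKM, other scalings and filters, and leaving out each library. Exact 95% intervals and the floor of 3 counts cover counting error only. Genome coordinates of the deposited build are not used here. One pathway gene is not reported here.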

Additional observations from a re-analysis of the deposited data

How the results depend on the processing

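IFI44L, SAMD9 and IFIT5 kept their direction and their call in all settings that tested them, with log2 fold changes of −6.09 to −0.23, −3.54 to −1.16 and −1.53 to −0.74, the smallest for IFI44L and SAMD9 being on log2(RPKM + 1), which compresses low values. The 5 members called lower became 3 with composition and length trends removed and 3 with the replicate block added to that, and 3 to 7 when 1 library was left out, 7 being without control replicate 2 and 3 without control replicate 1 or any library labelled knockdown. IFIT1 lost its call in 11 of 16 settings and IFIT3 in 6. IFI6 turned positive, without a call, under plain library totals (0.068) and on log2(RPKM + 1) and log2(RPKM + 0.1) (0.065 and 0.071), where the median of all genes stood at 0.13, 0.08 and 0.15 and not at −0.04. ISG15 ran from −1.30 to 0.068 as 1 library was left out, positive without control replicate 2. The cause of these changes was not tested.

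Over all genes 4267 were called (1654 higher, 2613 lower), 1975 with the replicate block and trends removed, and 1191 to 9063 with 1 library left out (9063 without control replicate 2, 2044 without control replicate 1, at most 1315 without a library labelled knockdown). The split was 1888 higher and 1649 lower under plain library totals, 2299 and 1527 on log2(RPKM + 1), and 2021 and 1530 on log2(RPKM + 0.1). The 30 called pathway genes became 18 with trends removed, 13 with the block as well, and 5 to 57 with 1 library left out, 57 being without control replicate 2. TRDMT1 was called under plain totals (0.80), DESeq2 (0.64), log2(RPKM + 1) (0.25), log2(RPKM + 0.1) (0.66) and trends removed (1.04), and ran from 0.45 to 0.79 with 1 library left out, called without control replicate 2. Same-numbered libraries did not deviate together (correlations of −0.04, 0.06 and 0.001 across genes), so the numbers pair nothing; the replicate block gave 2976 calls, 22 of pathway genes and 4 of members, IFIT1 being lost, and a TRDMT1 value of 0.63. Depth limits IFI44, SAMD9L and IFI44L, with at most 66 counts in a library. IFI44 and SAMD9L were tested and called with no filter (−3.36 ± 0.85 and −2.99 ± 0.84). With 1 library left out, IFI44 was tested in 4 fits (−4.76 to −3.03) and called in none of them. SAMD9L was tested in the fit without control replicate 2 and called there (−3.34 ± 0.78).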
